A study of Mus musculus with 2 samples.

Results

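Cadherins are calcium-dependent adhesion proteins that hold neighbouring cells together. The 7 genes described here were Cdh1, Cdh3, Cdh2, Cdh4, Cdh5, Cdh11 and Cdh13, found by their symbols among the 31053 genes of the count tables; all 7 were present in both libraries. The extracellular repeats of a classical cadherin bind cadherins on the next cell, and its cytoplasmic tail binds p120 catenin and beta-catenin, which joins alpha-catenin and through it the actin cytoskeleton. E-cadherin, the product of Cdh1, is best known from luminal mammary epithelium, and P-cadherin, the product of Cdh3, from the myoepithelial layer around it. The name classical fits 2 of the 7 genes less closely. VE-cadherin (Cdh5) is a divergent member of the family, and T-cadherin (Cdh13) is held in the membrane by a lipid anchor and lacks the catenin-binding tail.

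The study profiled single cells of the mammary gland of C57BL/6 mice, sorted as CD24high CD29+, with a droplet-based 3' method that counts unique molecules (UMIs). There were 2 libraries, 1 with the genotype label WT and 1 with the genotype label Fgd5-ko, whose title carries the short form cko. No source used here gives the cells in which Fgd5 was deleted, the number or age of the mice, or what P4 in the titles stands for. By their labels the 2 libraries contrast a WT and an Fgd5-ko genotype. Fgd5 is an activator of the GTPase Cdc42. With 1 library per group there was no replicate and no test, so every interval below is a 95% interval for counting error only, and library and genotype cannot be told apart.

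The authors' table listed 6588 cells of the WT-labelled library and 6064 of the Fgd5-ko-labelled library, with medians of 4954 and 15712 UMIs. In basal-like cells Fgd5 itself went against the labels. It was at 0.777 CPM (UMIs of a gene per 1000000 UMIs) in the WT-labelled library and at 4.07 CPM in the Fgd5-ko-labelled library, from 27 and 419 UMIs. Fgd5 was highest in endothelial-like cells, at 101 and 127 CPM, and was at 93.1 and 97.8 CPM in lymphatic endothelial-like cells. Fibroblast-like (3.76 and 2.20 CPM), pericyte and vascular smooth muscle-like (13.7 and 6.81 CPM) and Schwann-like barcodes (18.5 and 4.11 CPM) had less in the Fgd5-ko-labelled library. Each of these 3 ratios had an interval that included 0. A 3' tag outside a deleted part would not show a deletion, and no source used here gives the deleted part. The 2 libraries shared 34 barcode sequences. Classes were named from markers that held no cadherin, and all Cdh genes were left out of the clustering. Basal-like cells made up 6254 and 5991 of the listed cells, with the 11 basal markers at 25932 and 17633 CPM summed. All 11 also had UMIs in fibroblast-like cells, at 215 and 232 CPM summed. Pericyte and vascular smooth muscle-like cells reached 19070 and 14704 CPM of these markers, with no UMI of Trp63. Luminal progenitor and alveolar-like cells (147 and 23) and hormone-sensing luminal-like cells (113 and 10) came partly from the table. Endothelial-like (1239 and 263), lymphatic endothelial-like (165 and 67), fibroblast-like (917 and 480), pericyte and vascular smooth muscle-like (194 and 84) and Schwann-like barcodes (65 and 39) lay outside the authors' table. Except for a few cycling cells, the basal-like cells of the 2 libraries fell into separate clusters, so that a basal-like cluster is also mostly 1 library.

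The cadherins divided among the cell classes. Cdh1 was carried by the epithelial classes, Cdh3 by basal-like cells, Cdh5 and Cdh13 by endothelial-like cells, Cdh11 by fibroblast-like and Schwann-like cells, Cdh4 by lymphatic endothelial-like cells, and Cdh2 by Schwann-like, pericyte and lymphatic endothelial-like cells. Among the 5 classes with at least 50 cells in each library, 6 of the 7 members were highest in the same class in both libraries. The exception was Cdh2, highest in pericyte and vascular smooth muscle-like cells in the WT-labelled library and in lymphatic endothelial-like cells in the Fgd5-ko-labelled library. This limit left out both luminal classes and the Schwann-like barcodes, so that Cdh1 counted as highest in basal-like cells although the luminal classes had more. With classes of at least 20 cells the count was 5 of 7, because Cdh11 was then highest in Schwann-like cells in the WT-labelled library and in fibroblast-like cells in the other. Cdh1 was then highest in luminal progenitor and alveolar-like cells in both. By the share of cells with a UMI after thinning to 2000 UMIs, the count among the 5 classes was also 5. Cdh4 was then highest in pericyte and vascular smooth muscle-like cells in the Fgd5-ko-labelled library. Before thinning that class had only 2 Cdh4 UMIs there, against 24 in lymphatic endothelial-like cells.

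**Figure D1:**
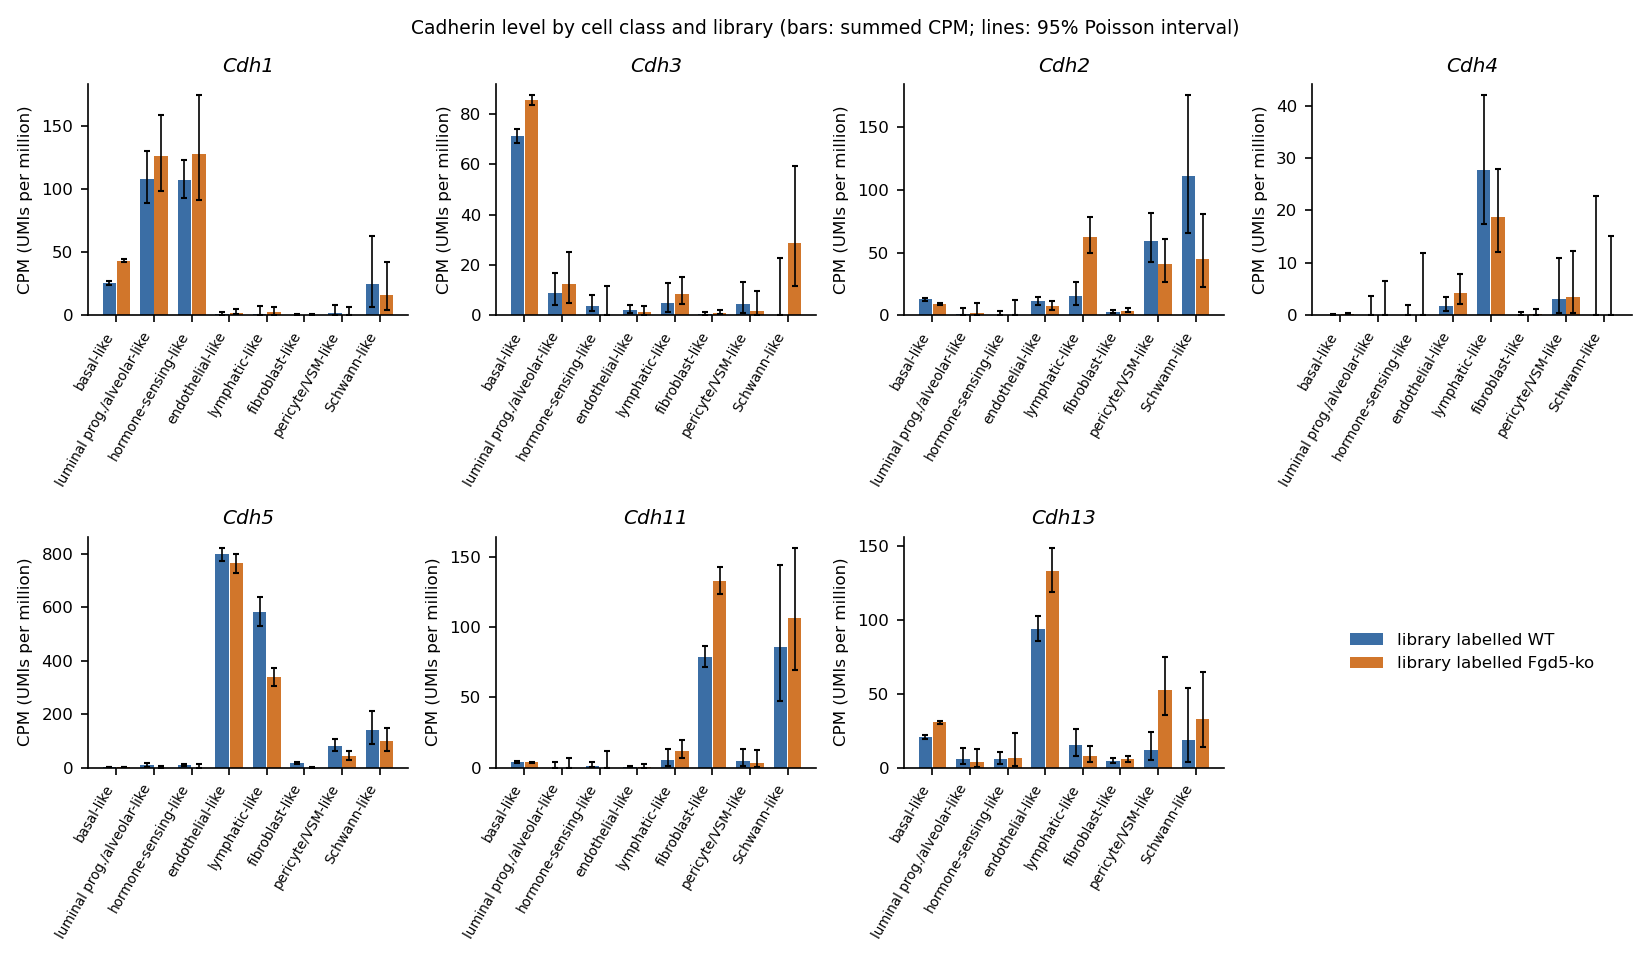
Level of each cadherin in CPM (UMIs of the gene summed over a class, per 1000000 UMIs of that class) by cell class, with 1 bar per library and lines for the 95% Poisson interval. Cdh3 in basal-like cells reached 71.1 and 85.6 CPM and Cdh5 at 798 and 764 CPM in endothelial-like cells, whereas Cdh1 was higher in both luminal classes than in basal-like cells.

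Cdh1 (ENSMUSG00000000303), which lies next to Cdh3 on the same strand of chromosome 8, was about as high in the 2 luminal classes. Luminal progenitor and alveolar-like cells had 108 CPM (88.6 to 130) in the WT-labelled library and 126 CPM (98.7 to 159) in the Fgd5-ko-labelled library, and hormone-sensing luminal-like cells had 107 and 128 CPM. The 2 luminal classes did not differ beyond counting error in either library. Basal-like cells had 25.5 CPM (23.8 to 27.2) in the WT-labelled library and 43.1 CPM (41.8 to 44.4) in the Fgd5-ko-labelled library. They lay below the next luminal class by 2.07 (1.84 to 2.30) on the log2 scale in the WT-labelled library and by 1.55 (1.19 to 1.88) in the Fgd5-ko-labelled library. Fibroblast-like cells had 0.342 and 0.338 CPM, from 2 UMIs in each library, and endothelial-like cells 1.19 and 2.15 CPM. The 4 Cdh1 UMIs of Schwann-like barcodes in each library stood beside Krt14, a basal keratin, at 178 and 851 CPM there, and only 1 and 0 of them were in barcodes with no UMI of Krt5 or Krt14.

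Cdh3 (ENSMUSG00000061048) had the reverse order. Basal-like cells had 71.1 CPM (68.4 to 74.0) in the WT-labelled library and 85.6 CPM (83.9 to 87.4) in the Fgd5-ko-labelled library. Luminal progenitor and alveolar-like cells had 8.91 and 12.3 CPM, and hormone-sensing luminal-like cells had 3.88 CPM and no UMI, where a count of 0 allows up to 9.59 CPM. Outside the epithelium, fibroblast-like cells had 0.342 and 1.02 CPM of Cdh3, and it reached 2.19 and 1.29 CPM in endothelial-like cells, 4.57 and 1.70 CPM in pericyte and vascular smooth muscle-like cells and 5.03 and 8.61 CPM in lymphatic endothelial-like cells. Schwann-like barcodes had no Cdh3 UMI in the WT-labelled library and 28.8 CPM (11.6 to 59.3), from 7 UMIs, in the Fgd5-ko-labelled library, none of them in barcodes without a UMI of Krt5 or Krt14. Krt14 gave 21.9 and 37.7 CPM in the same fibroblast-like cells, against 2631 and 2272 CPM in basal-like cells, and the part of free or carried-over basal RNA in the low Cdh3 values was not tested.

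The balance of these 2 cadherins set the epithelial classes apart. Of the summed UMIs of Cdh1 and Cdh3, Cdh1 had 26.4% (24.9 to 27.9) in basal-like cells of the WT-labelled library and 33.5% (32.7 to 34.3) in those of the Fgd5-ko-labelled library. The same share was 92.4% and 91.1% in luminal progenitor and alveolar-like cells and 96.5% and 100% in hormone-sensing luminal-like cells. After each cell was thinned to 2000 UMIs, 44 of 6193 basal-like cells of the WT-labelled library had both genes, 236 had Cdh1 alone and 816 had Cdh3 alone. The corresponding numbers in the Fgd5-ko-labelled library were 83, 442 and 872 of 5991 cells. Most basal-like cells had neither at this depth, 82.3% and 76.7% of them.

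Between the libraries, Cdh1 in basal-like cells was higher in the Fgd5-ko-labelled library by 0.76 (0.65 to 0.86) on the log2 scale, a 1.69-fold ratio. Cdh3 differed by 0.27 (0.20 to 0.33), close to the median of 0.24 over all 14999 genes with at least 20 UMIs in that class. Thinning to 2000 UMIs per cell left Cdh1 in 4.52% and 8.76% of basal-like cells, against 12.6% and 46.2% before thinning, and in no fibroblast-like cell of either library after thinning. Fibroblast-like cells had medians of 6411 and 12501 UMIs and basal-like cells 4924.5 and 15725. In luminal progenitor and alveolar-like cells the Cdh1 ratio was 0.22 (-0.23 to 0.67) and in hormone-sensing luminal-like cells 0.26 (-0.27 to 0.75). Both intervals included 0 and overlapped the basal-like interval, and these classes held only 23 and 10 cells of the Fgd5-ko-labelled library. Whether the ratio differs between basal-like and luminal classes was not tested.

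Clusters within the basal-like class give the spread of Cdh1 inside each library, as a description, since clusters of 1 library are not replicates and nearly all held cells of 1 library. The 6 clusters of the WT-labelled library with at least 50 listed cells ran from 20.8 to 29.2 CPM with a median of 25.3, and the 8 of the Fgd5-ko-labelled library ran from 35.0 to 49.6 CPM with a median of 44.2. The ranges of the levels did not overlap. The interval of the highest in the first, which reached 33.2 CPM, overlapped that of the lowest in the second, which began at 31.5 CPM. The share of all genes whose cluster ranges lie apart in this way was not counted, so the gap cannot be called particular to Cdh1. Over all genes of the class 27% were past 1.5-fold higher in the Fgd5-ko-labelled library. The ranges of Cdh3 overlapped: 39.4 to 81.5 CPM in the WT-labelled library and 67.9 to 107 CPM in the Fgd5-ko-labelled library. The lowest Cdh3 in each library was in a cluster led by histone genes of S phase. In the 2 basal-like clusters of listed cells led by cell-cycle genes that held cells of both libraries, Cdh1 was at 29.0 and 43.0 CPM where Cenpf led and at 55.3 and 42.5 CPM where Hist1h1b led, from only 6 and 8 UMIs in the WT-labelled library. Outside the authors' table, another basal-like cluster led by Hist1h1b held 50 and 135 barcodes. It had 26.4 and 47.4 CPM of Cdh1, from 27 and 295 UMIs, a ratio of 0.84 (0.27 to 1.47).

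**Figure D2:**
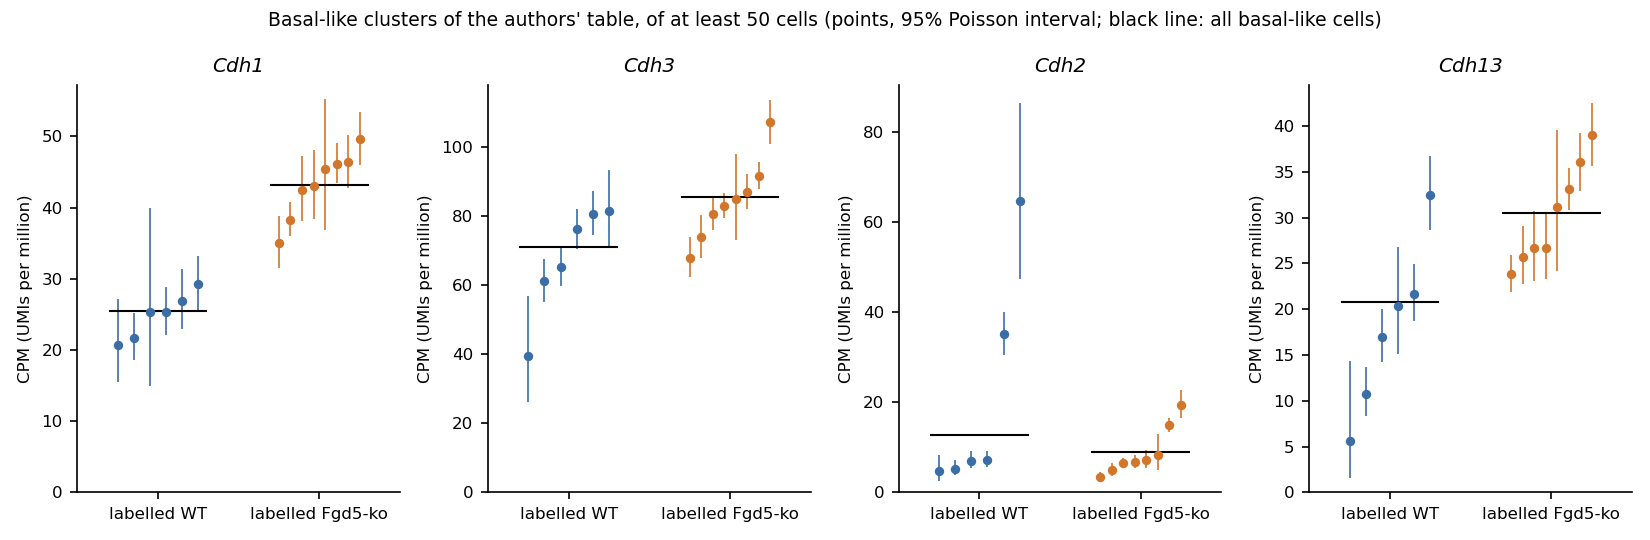
CPM of Cdh1, Cdh3, Cdh2 and Cdh13 in basal-like clusters of the authors' table with at least 50 cells in a library (points with 95% Poisson intervals, ordered by level), with a black line for all basal-like cells of the library. The Cdh1 points of the WT-labelled library end at 29.2 CPM and those of the Fgd5-ko-labelled library start at 35.0 CPM, whereas the Cdh2 points of each library spread from under 5 CPM to well above the class level. The share of all genes with such a gap was not counted.

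Depth per cell was unequal between the libraries, and its part in the Cdh1 difference was not tested. With only cells of 4000 to 12000 UMIs the Cdh1 ratio was 0.60, and after thinning to 2000 UMIs it was 0.64, against 0.76 with all cells. In the WT-labelled library, Cdh1 lay between 20.1 and 27.0 CPM in the 4 groups of basal-like cells ordered by UMIs, and in the Fgd5-ko-labelled library it was 36.9, 40.5, 44.3 and 45.6 CPM from the shallowest group to the deepest. The deepest group of the first library reached 15261 UMIs and the shallowest of the second spanned 3634 to 11779. Among basal-like barcodes outside the authors' table, 178 and 339 in number, 4 of the 5 members with at least 20 UMIs were past 1.5-fold higher (Cdh1, Cdh3, Cdh11 and Cdh13) and 1 was lower (Cdh2), where 32.6% of genes were higher and 8.65% lower. They had 33.4 and 51.5 CPM of Cdh1 and 44.3 and 83.7 CPM of Cdh3. The Cdh3 ratio among them, 0.92 (0.67 to 1.17), was thus larger than among the listed cells. These barcodes belonged to clusters of unlike makeup: 128 of the 178 were in a cluster led by Acot5 and Cidea, and 195 of the 339 in a cluster with no barcode of the WT-labelled library.

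Past a ratio of 1.5-fold, basal-like cells had 2 of the 7 members higher in the Fgd5-ko-labelled library (Cdh1 and Cdh4) and 1 lower (Cdh5), where 27% of all genes were higher and 10.2% lower. The median over the members was 0.27 against 0.24 over all genes. These counts depend on the scaling. TMM and median-ratio scaling moved every basal-like ratio by -0.17 and -0.19, after which Cdh1, at 0.58 and 0.57, was just inside 1.5-fold, Cdh2, at -0.69 and -0.70, was past it, and 1 member was higher and 2 were lower. Of all genes past 1.5-fold, 72.6% were higher under total UMIs, 57.3% under TMM and 55.9% under median-ratio scaling. Cdh4 rested on 5 and 27 UMIs in basal-like cells, and its ratio of 0.87 had an interval from -0.53 to 2.60.

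Cdh2 (ENSMUSG00000024304), the gene of N-cadherin on chromosome 18, known from nerve, muscle and mural cells, had several sources. Schwann-like barcodes had 111 CPM (65.6 to 175) in the WT-labelled library and 45.2 CPM (22.6 to 80.9) in the Fgd5-ko-labelled library. Pericyte and vascular smooth muscle-like cells had 59.4 and 40.9 CPM, and their level came from the cluster led by H2-M9 and the pericyte marker Rgs5, with 118 and 91.2 CPM. Lymphatic endothelial-like cells had 15.1 CPM (7.80 to 26.4) and 62.6 CPM (49.7 to 77.9), from 12 and 80 UMIs. That ratio, 2.05 (1.17 to 3.06), was the highest of any member in that class and was nearly the same, 1.98, within the single cluster led by Ccl20, Marco and Lyve1. The lymphatic endothelial-like cells had medians of 4229 and 18299 UMIs. After thinning to 2000 UMIs, 0 and 5.97% of them had a Cdh2 UMI, against 4.85% and 52.2% before. The 8 pericyte and vascular smooth muscle markers stood at 57.9 and 357 CPM summed in this class, with UMIs of 6 and 5 of them. Per 1000 UMIs of those markers, Cdh2 had 261 UMIs (135 to 456) and 175 UMIs (139 to 218). In pericyte and vascular smooth muscle-like cells the same measure was 21.6 (15.3 to 29.5) and 15.7 (10.0 to 23.3). The part of pericyte RNA in the Cdh2 ratio was not tested. Among blood endothelial clusters with cells of both libraries, only the one led by Glycam1, a ligand of lymphocyte homing made by high endothelial venules, reached 20 Cdh2 UMIs, with 31.5 and 26.3 CPM.

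Within basal-like cells Cdh2 was at 12.7 CPM (11.6 to 14.0) in the WT-labelled library and 8.91 CPM (8.34 to 9.50) in the Fgd5-ko-labelled library, a ratio of -0.51 (-0.68 to -0.35). It was concentrated in few clusters. The cluster of the WT-labelled library led by Gm33651, Igfbp2 and Lamp5 held 12.6% of the basal-like cells and 48.6% of their Cdh2 UMIs, 215 of 442, at 35.1 CPM. In the Fgd5-ko-labelled library the cluster led by 1600014C10Rik, Serpinb11 and Gm33651 held 19.0% of the cells and 36.2% of the UMIs, 332 of 916, at 14.9 CPM. These 2 clusters shared 4 of their 10 leading genes: Gm33651, Il17b, Serpinb11 and Col9a1. The highest basal-like levels were in clusters led by histone genes, 64.7 CPM in 76 cells of the WT-labelled library and 19.4 CPM in 303 cells of the Fgd5-ko-labelled library.

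Cdh4 (ENSMUSG00000000305), the gene of R-cadherin on chromosome 2, was the scarcest of the 7, with 46 and 74 UMIs over all barcodes used. Lymphatic endothelial-like cells had 27.7 CPM (17.4 to 41.9) and 18.8 CPM (12.0 to 28.0), from 22 and 24 UMIs. All of these lay in the cluster led by Ccl20, Marco and Lyve1, whereas the other lymphatic cluster, led by Mmrn1, had none in its 40 and 13 barcodes. The next class, blood endothelial-like cells in the Fgd5-ko-labelled library, was lower by 2.12 (1.01 to 3.35) on the log2 scale. Luminal and Schwann-like classes had no Cdh4 UMI in either library.

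Cdh5 (ENSMUSG00000031871), the gene of VE-cadherin, on which endothelial junctions depend, marked the endothelial-like class at 798 CPM (773 to 823) and 764 CPM (729 to 801), a ratio of -0.06 (-0.14 to 0.02). It was highest in the capillary-type cluster led by Gpihbp1 and Car4, at 1629 and 1402 CPM, followed by the cluster led by Cytl1 and Gkn3 at 960 and 880 CPM. The Glycam1 cluster was lowest of the blood endothelial clusters, at 465 and 374 CPM. All 5 blood endothelial clusters were slightly lower in the Fgd5-ko-labelled library, by ratios of -0.13 to -0.31, of which 3 had intervals below 0. The capillary-type cluster held 166 of the 1239 endothelial-like barcodes in the WT-labelled library and 87 of the 263 in the Fgd5-ko-labelled library. Lymphatic endothelial-like cells had 583 and 337 CPM, a ratio of -0.79 (-0.98 to -0.60), and their 10 blood endothelial markers also stood lower in the Fgd5-ko-labelled library, at 3379 against 4957 CPM summed. Per 1000 UMIs of those markers, lymphatic endothelial-like cells had 118 and 99.8 Cdh5 UMIs.

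Outside the endothelium Cdh5 is given beside the endothelial markers. In fibroblast-like cells it had 97 UMIs in 27 barcodes of the WT-labelled library, of which 85 were in the 18 barcodes with at least 10 endothelial marker UMIs, and 0 UMIs in the 480 barcodes of the Fgd5-ko-labelled library, where a count of 0 allows up to 0.508 CPM. The endothelial markers stood at 244 and 123 CPM in these cells, so that Cdh5 per 1000 marker UMIs was 67.9 (55.0 to 82.8) in the first library and 0 (0 to 5.08) in the second. In the pericyte and vascular smooth muscle-like class, Cdh5 was at 80.7 and 42.6 CPM beside endothelial markers at 1085 and 710 CPM. Basal-like cells had 1.21 and 0.661 CPM, and their endothelial markers stood at 21.6 and 11.4 CPM, so that Cdh5 per 1000 marker UMIs was 55.9 and 57.8. Without the cluster led by Hist1h1b, which held 21 cells of the WT-labelled library, basal-like Cdh5 was 0.838 and 0.454 CPM. The part of endothelial RNA or of doublets in these values was not tested. In Schwann-like barcodes Cdh5 was at 142 and 98.6 CPM, from 23 and 24 UMIs. In the 55 and 35 of them with no UMI of any endothelial marker it was at 70.7 CPM (32.3 to 134) and 100.2 CPM (62.0 to 153), from 9 and 21 UMIs. Per 1000 endothelial marker UMIs, Schwann-like barcodes had 256 (162 to 383) and 4800 (3075 to 7142) Cdh5 UMIs, from 90 and 5 marker UMIs. Endothelial-like cells had 96.7 and 83.5 by the same measure. The class of Schwann-like barcodes had medians of 1923 and 3287 UMIs, so a barcode without a marker UMI may still hold endothelial RNA, and its part was not tested.

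Cdh13 (ENSMUSG00000031841), the gene of T-cadherin, a receptor of adiponectin, followed the blood endothelium but with another order of clusters than Cdh5. Endothelial-like cells had 94.1 CPM (85.8 to 103) and 133 CPM (119 to 149), a ratio of 0.50 (0.29 to 0.71). The highest levels were in the cluster led by Cytl1 and Gkn3, an arterial-type cluster that also had Sema3g and Sox17 among its leading genes, with 248 and 335 CPM, and in the capillary-type cluster, with 242 and 287 CPM. The cluster led by Selp, a selectin of venules, had 98.1 and 141 CPM, the cluster led by Hbb-bs and Rbp7 had 58.9 and 90.9 CPM, and the Glycam1 cluster was near the bottom. The 4 Cdh13-rich clusters were higher in the Fgd5-ko-labelled library, by 0.24 to 0.63, although only the ratio of the cluster led by Hbb-bs and Rbp7, 0.63 (0.15 to 1.09), had an interval above 0.

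Basal-like cells were also a source of Cdh13, at 20.7 CPM (19.3 to 22.3) and 30.5 CPM (29.5 to 31.6), a ratio of 0.56 (0.44 to 0.68). Their clusters ran from 5.62 to 32.5 CPM in the WT-labelled library and from 23.9 to 39.0 CPM in the Fgd5-ko-labelled library, and the ranges overlapped. The highest cluster of the WT-labelled library was led by Actg2, a smooth muscle actin of contractile cells. The cluster with most Cdh2 of that library had 10.8 CPM of Cdh13. In pericyte and vascular smooth muscle-like cells Cdh13 stood at 12.2 and 52.8 CPM, from 8 and 31 UMIs, and in the cluster led by H2-M9 and Rgs5 from 1 and 19 UMIs.

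Cdh11 (ENSMUSG00000031673), the gene of OB-cadherin, known from bone-forming and mesenchymal cells, was at 79.0 CPM (72.0 to 86.5) and 133 CPM (124 to 142) in fibroblast-like cells, a ratio of 0.75 (0.58 to 0.92). The class was divided. The cluster led by Lum, Col3a1 and Mmp3 held 86.4% and 94.1% of the fibroblast-like Cdh11 UMIs, at 281 and 319 CPM, and within it the ratio was 0.18 (0.00 to 0.36). Of the clusters with Pi16, a marker of adventitial fibroblasts, among their leading genes, the one led by Pi16 and Smpd3 had 6.17 CPM in 370 barcodes of the WT-labelled library, and the one led by Mrgprg and Pi16 had 5.85 CPM in 204 of the Fgd5-ko-labelled library. The cluster led by Lum made up 23.9% of the fibroblast-like barcodes of the WT-labelled library and 39.0% of those of the Fgd5-ko-labelled library. The part of this makeup in the class ratio was not tested. The cluster led by Inmt had 52.0 and 32.0 CPM.

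Schwann-like barcodes had Cdh11 at 86.1 CPM (47.1 to 145) and 107 CPM (69.8 to 157), level with the fibroblast-like class within counting error in both libraries. Fibroblast markers were also present in them, at 5120 and 7252 CPM summed. Only 8 and 2 Schwann-like barcodes had no UMI of a fibroblast marker, too few to give a level without it. Per 1000 UMIs of those markers, Cdh11 had 16.8 UMIs (9.20 to 28.2) and 14.7 UMIs (9.62 to 21.6) in Schwann-like barcodes. Fibroblast-like cells had 2.82 and 4.79 by the same measure, and the part of fibroblast RNA was not tested. Basal-like Cdh11 was low, at 3.91 and 3.62 CPM.

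**Figure D3:**
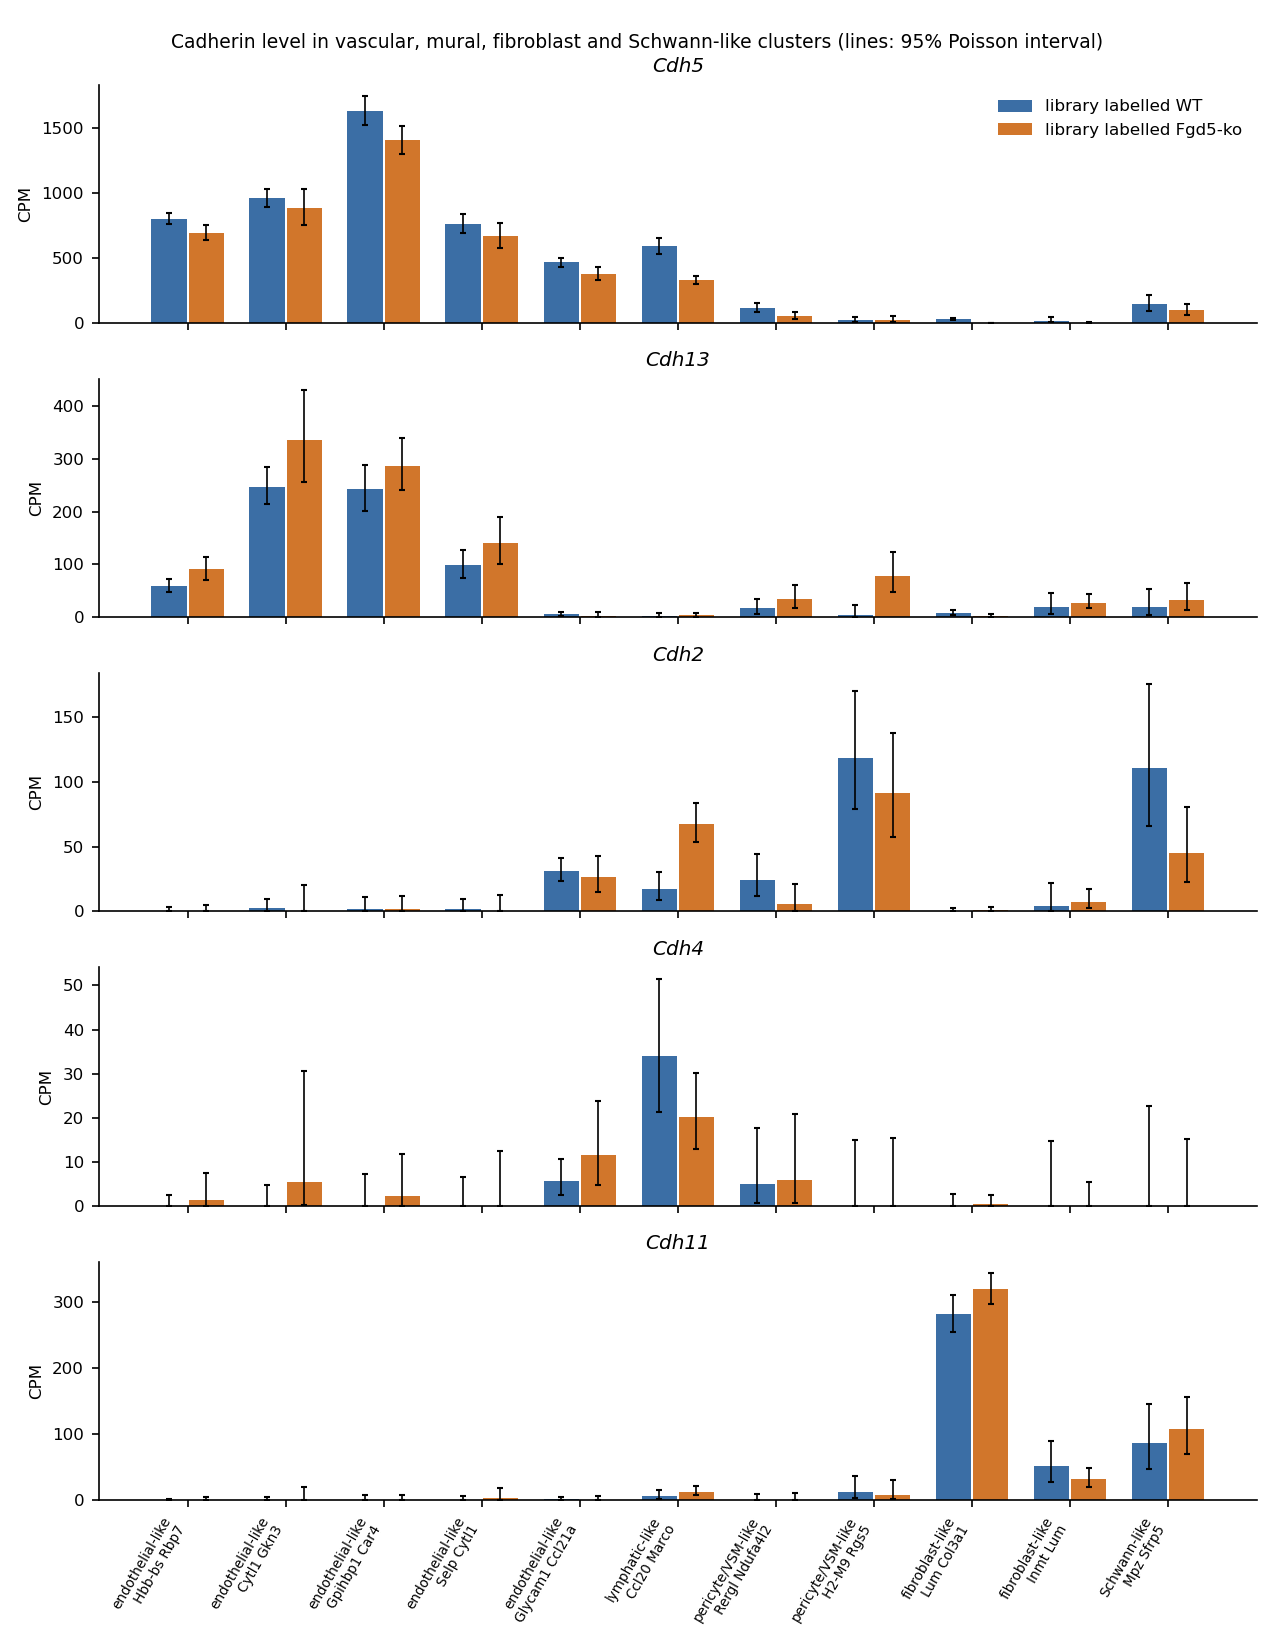
CPM of Cdh5, Cdh13, Cdh2, Cdh4 and Cdh11 in clusters outside the epithelium with at least 20 barcodes in each library, each named by its class and its leading genes (bars per library, lines for the 95% Poisson interval). Cdh11 is at 281 and 319 CPM in the fibroblast-like cluster led by Lum, Cdh5 peaks at 1629 and 1402 CPM in the cluster led by Gpihbp1 and Car4, and Cdh4 is highest in the cluster led by Ccl20.

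The counts past 1.5-fold in the other classes stand beside a background that differed by class. Endothelial-like cells had 3 members with at least 20 UMIs, of which 0 were higher and 1 was lower (Cdh2, -0.60 with an interval from -1.48 to 0.20), where 19.8% of genes were higher and 11.3% lower. Lymphatic endothelial-like cells had 1 of 4 higher (Cdh2) and 2 lower (Cdh5 and Cdh13), against 17.9% and 24% of genes. Their Cdh13 ratio, -0.95 with an interval from -2.32 to 0.39, rested on 12 and 10 UMIs. Fibroblast-like cells had 1 of 4 higher (Cdh11) and 1 lower (Cdh5), against 16.6% and 14.1%. Pericyte and vascular smooth muscle-like cells had 1 of 3 higher (Cdh13) and 1 lower (Cdh5), against 21.7% and 14%. Of the 3 members with enough UMIs in Schwann-like barcodes, 0 were higher and 1 (Cdh2) was lower, against 24.1% and 22.4% of genes, and in luminal progenitor and alveolar-like and hormone-sensing luminal-like cells the 1 such member, Cdh1, was within 1.5-fold, where 18.7% and 24.9% of genes were higher and 18.9% and 22.7% lower.

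The proteins that cadherins bind were compared between the libraries in basal-like cells. Of 18 catenins and adherens junction partners, 16 had at least 20 UMIs, 4 were past 1.5-fold higher, none was lower and 12 were within it, with a median of 0.39. Over all genes of the class 27% were higher and 10.2% lower, with a median of 0.24, so that the count of higher catenin genes is near the background, as are those of the regulators and of the shedding genes given after it. Among the most abundant, Ctnnb1 (beta-catenin) was at 146 and 179 CPM, Ctnna1 (alpha-catenin) at 126 and 138 CPM, Jup (plakoglobin) at 81.4 and 85.4 CPM and Vcl (vinculin, which binds alpha-catenin under tension) at 134 and 186 CPM. The 4 past the fold, named after their values were seen, were Nectin1 (47.2 and 74.7 CPM), Ctnnd2 (15.1 and 24.9 CPM), Arvcf (4.49 and 7.15 CPM) and Nectin4 (0.201 and 0.681 CPM). Only 1 of them was past the fold under TMM or median-ratio scaling.

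Desmosome genes join keratin filaments between cells. Of 10 with enough UMIs, 1 was higher (Dsc3, 3.42 and 6.10 CPM, named after its value was seen), 0 were lower and 9 were within the fold. Over all genes of the class 27% were higher and 10.2% lower. Under TMM or median-ratio scaling 1 was higher and 1 lower, where TMM put 19.2% of all genes higher and 14.4% lower and median-ratio scaling 18.8% and 14.8%. Their median was 0.09, and it was -0.08 under TMM and -0.10 under median-ratio scaling. The most abundant were Perp, at 258 and 278 CPM, Dsp (desmoplakin) at 103 and 131 CPM and Pkp3 (plakophilin 3) at 77.6 and 81.9 CPM. In basal-like cells Dsg2 (desmoglein 2) had 43.1 and 53.6 CPM, and it had 76.8 and 395 CPM in lymphatic endothelial-like cells.

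Among regulators of cadherins, 3 of 11 were past the fold higher and 1 lower, with a median of 0.29, against 27% of all genes higher and 10.2% lower. Snai2, a repressor that basal mammary cells express, was at 65.5 and 80.1 CPM, and the splicing regulator Esrp1 at 23.0 and 34.6 CPM. Grhl2, which activates Cdh1, was at 18.6 and 23.1 CPM and Ovol2, a repressor of mesenchymal genes, at 3.37 and 7.13 CPM. The third, Esrp2, was at 1.06 and 2.19 CPM, and the one that was lower, Zeb1, rested on 16 and 20 UMIs. Among genes of cadherin shedding and endocytosis 2 of 8 were higher and none lower, against the same shares of all genes. They were Ptpn1, a phosphatase that binds cadherin complexes, at 38.0 and 71.5 CPM, and Adam17 at 10.8 and 17.9 CPM. Adam10, the main protease that sheds E-cadherin, was at 32.2 and 31.3 CPM. Cbll1 was at 17.7 and 22.6 CPM and Numb at 16.2 and 17.6 CPM, both within the fold.

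Other cadherin genes were scarce in basal-like cells. Of 16, 5 reached 20 UMIs and 3 of these were past the fold lower: Cdh24 (2.21 and 1.42 CPM), Cdh23 (0.547 and 0.340 CPM) and Cdh15 (0.259 and 0.136 CPM), of which only Cdh24 had an interval below 0. None was higher, where 27% of all genes of the class were higher and 10.2% lower. Cdh10 was at 5.38 and 4.77 CPM and Cdh6 at 2.53 and 2.64 CPM. Outside the basal-like class, Cdh6 was at 33.5 and 73.2 CPM in pericyte and vascular smooth muscle-like cells and at 23.9 and 21.9 CPM in lymphatic endothelial-like cells. Cdh19, a cadherin of Schwann cells, was at 363 and 251 CPM in Schwann-like barcodes.

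Genes whose levels followed each cadherin most closely were sought over 16 sums of 8 classes in the 2 libraries, as a description only, since sums of 1 library share its depth. The 3 nearest to Cdh1 were Prss8 (Pearson's r 0.97), Il17re (0.97) and Grhl2 (0.96), and the 3 nearest to Cdh3 were Bcl11b, Adamts18 and Shisa8 (0.94 to 0.95). Cdh5 was nearest to Sema7a (0.94), the endothelial phosphatase gene Ptprb (0.92) and Lepr (0.92). Genes close to Cdh4 included Astn1 (0.93) and the lymphatic marker Lyve1 (0.93). Ptprb and Lyve1 were among the markers that named those classes. Cdh11 was nearest to Itgb7, Il11ra1 and Abi3bp (0.92 to 0.93), and Cdh13 to Slc6a6 (0.91), Plpp1 (0.88) and Dab2ip (0.87). Cdh2, which had several carrier classes, was nearest to Son (0.93), Arhgdib (0.92) and Mpc1 (0.91).

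Unnamed clusters, which held 779 and 386 barcodes, carried 1337 of 6074 and 733 of 3075 Cdh5 UMIs and 6.73% and 3.97% of Cdh1 UMIs. One of them, of the authors' table, was led by BC100530, Fgfbp1 and Ly6d, with the squamous gene Sprr1a among its 10 leading genes. It had Cdh1 at 44.6 and 100.7 CPM and Cdh3 at 51.1 and 63.9 CPM, from 103 and 38 cells.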

How the data were processed

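The authors deposited UMI counts per gene and barcode for each library, with no normalization, and a table of cell barcodes; per the file headers the Cell Ranger output carries version 3.1.0. Cell Ranger, Seurat 3.0 and mm9 are listed, per the submitters' processing notes, and no source used here gives the annotation or the authors' cell filter. No row lacked a gene name, and 0 columns of per-sample values were left unmapped.

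Cells of the authors' table and, separately, other barcodes (3490 and 1626, from 1000 UMIs and 500 genes up, no more than 15% of UMIs mitochondrial) were scaled to 10000 counts and clustered without batch correction (2000 variable genes, no Cdh genes, 30 components, 15 neighbours, Leiden resolution 1). A cluster took the name of its highest marker list at a log2 margin of at least 1, with 3 markers in 10% of cells and top 10 genes not led by another list; other clusters stayed unnamed. These naming limits were chosen with the data in view. Lymphatic endothelial-like cells are a sub-class of the endothelial clusters. Doublets were neither called nor removed.

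UMIs were summed per class and library and scaled to 1000000 UMIs of the class (CPM). Poisson, Clopper-Pearson and exact conditional intervals are at 95%, and a count of 0 allows 3 counts. Ratios use genes with at least 20 UMIs over both libraries and a threshold of 1.5-fold; no test was possible. The interval code was tested on simulated data. Named are the 7 members, the 4 most abundant genes of each of 5 partner lists and the 3 genes most like each member among those with at least 20 CPM in a class (1 of these genes is not reported here); genes past the fold and genes leading a cluster were chosen with their values in view. The members and lists were chosen with earlier results of these data known. Alternatives are in the closing section. Clustering used scanpy 1.11.5, leidenalg 0.10.2 and scikit-learn 1.9.0; sums and intervals used Python 3.11.15 with pandas 2.3.3, SciPy 1.17.1 and NumPy 2.4.6; TMM factors came from edgeR 4.0.16 in R 4.3.3, and figures from matplotlib 3.10.9.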

Additional observations from a re-analysis of the deposited data

Results flagged for a closer look

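The library ratio of Cdh2 took opposite signs in different classes. It was above 0 in lymphatic endothelial-like cells (2.05) and below 0 in basal-like cells (-0.51), a gap of 2.57 on the log2 scale, and below 0 in Schwann-like barcodes (-1.29), a gap of 3.35. Each of the 3 intervals excluded 0 for counting error, but with 1 library per group the difference between classes was not tested. The classes rested on 12 and 80, 442 and 916, and 18 and 11 UMIs. Pericyte and vascular smooth muscle markers in the lymphatic endothelial-like class were also higher in the Fgd5-ko-labelled library, at 357 against 57.9 CPM summed. Per 1000 UMIs of these markers, Cdh2 had 261 UMIs there in the WT-labelled library and 175 in the Fgd5-ko-labelled library. Pericyte and vascular smooth muscle-like cells had 21.6 and 15.7 by the same measure, and the part of pericyte RNA was not tested.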

How the results depend on the processing

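No paired analysis was possible because there was 1 library per group. Over 11 alternatives the basal-like log2 ratio ran from 0.57 to 0.79 for Cdh1 and from 0.077 to 0.48 for Cdh3, and none changed sign. For Cdh1, values outside the interval of the reported 0.76 were 0.60 with cells of 4000 to 12000 UMIs only, 0.64 after thinning to 2000 UMIs, 0.58 with TMM and 0.57 with median-ratio size factors. For Cdh3, reported at 0.27, they were 0.48 with cells of 4000 to 12000 UMIs, 0.093 with TMM and 0.077 with median-ratio size factors; the 2 scalings shift all genes alike, and for the cell limits the cause was not tested. Chosen after seeing the data were the alternatives with basal-like barcodes outside the table, without the clusters led by cell-cycle genes and without barcode sequences found in both libraries, and all 3 stayed within the intervals. The count of members highest in the same class was 5 or 6 under 4 alternatives. At 2-fold, 17.4% of genes in basal-like cells were past the threshold, against 37.1% at 1.5-fold. The luminal classes of the Fgd5-ko-labelled library, with 23 and 10 cells, and the Schwann-like barcodes, 65 and 39, give wide intervals.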
